A study of Mustela putorius furo with 2 samples.

Results

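The genes described here are the potassium channel genes measured in single cells of the ferret cortex. They are the 74 gene symbols that begin with KCN followed by a further letter and that held at least 20 UMIs (unique molecular identifiers, each standing for 1 captured RNA molecule) over all cells. The deposited feature table lists 109 such symbols among 29816 names, and 89 of the 109 had at least 1 UMI. KCNS3 and KCNT1 (21 UMIs each) and KCNA2, KCNJ16 and KCNK4 (23 each) lay just inside the limit, and KCNC4 (16), KCNK6 (12), KCNG2, KCNG4 and KCNMB1 (11 each) just outside it. Of the 20 symbols with no UMI, 19 stand after the last name in the table that held any UMI and were treated as unmeasured. The samples were 2 replicate 10x Genomics Chromium libraries of dorsal cortex from wild-type ferret (Mustela putorius furo) pups at P3 (postnatal day 3), dissociated with papain. There was no treatment, no second genotype and no other age, so every comparison is between cell classes inside the libraries. The labels do not say whether the replicates came from separate animals. The p-values measure only how class sums differ between these libraries once the difference common to all classes is removed. That spread is estimated over all classes together and may be technical.

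Potassium channels let potassium leave or enter a cell through a selective pore, and so set its resting voltage, shape and end its action potentials, and clear potassium that active neurons release. Voltage-gated channels open on depolarization, calcium- and sodium-activated channels open when those ions build up inside the cell, inward rectifiers pass current best near rest, and 2-pore-domain channels carry steady leak current. Accessory subunits do not form a pore but change the opening, closing and surface delivery of the pore subunits they bind. By these roles the 74 genes comprised 31 voltage-gated pore subunits, 15 accessory subunits and regulators, 7 calcium- or sodium-activated channels, 12 inward rectifiers and 9 2-pore-domain channels.

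The 2 libraries are called A (9782 cells, 41836475 UMIs) and B (5005 cells, 18907140 UMIs), after the 2 barcode endings, which the labels do not tie to a replicate number. They shared 21 barcodes. Cells were sorted into classes by UMIs of marker genes, none of them a potassium channel gene, and 7065 of the 14773 kept cells (47.8%) fell into 14 classes with at least 20 cells in each library. The smallest classes were oligodendrocyte precursors (57 cells in A, 25 in B), perivascular cells (34 and 26) and deep-layer neurons (109 and 29), against 1277 and 479 upper-layer neurons. An intended class of MEIS2 inhibitory neurons held 8 and 2 cells and was left out of every comparison. The defining markers followed the class names, as with SOX10 at 271 to 280 CPM (UMIs of a gene per 1000000 UMIs of the class) in oligodendrocyte precursors and at or under 20.1 CPM elsewhere, and RGS5 at 1295 to 1770 CPM in perivascular cells and at or under 148 CPM elsewhere. FEZF2, a deep-layer marker, was higher in non-dividing HOPX and CLU glia (87.7 to 102 CPM) than in deep-layer neurons (45.4 to 57.0 CPM), so that class rests on its other markers too, such as TBR1 (188 to 189 CPM against 15.3 to 19.0 in upper-layer neurons). SOX10, RGS5, FEZF2 and TBR1 were all used in the gates. Their levels therefore follow in part from the gating and are no independent check of the classes. STMN2, a neuronal gene that no gate used, read 1787 to 1974 CPM in upper-layer neurons, and also 431 to 444 in endothelial cells, 292 to 331 in perivascular cells and 315 to 458 in microglia. STMN2 UMIs were therefore present in the vascular and microglial sums. Whether they are RNA carried over from neurons, and any part of it in the levels of neuronal channel genes there, was not tested.

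Potassium channel genes together took 0.251% of the UMIs of library A and 0.223% of those of library B. A few genes held most of that. KCNMB2, an accessory subunit of the large-conductance calcium-activated channel, held 22.5% of the potassium channel UMIs. KCNH7, a pore subunit of the ether-a-go-go related family, held 19.8%, KCNQ3, a pore subunit of the M current that restrains repetitive firing, 9.77%, and KCND2, a pore subunit of the fast A-type current, 6.0%. Because these are counts of 3′ ends that are not divided by gene length, the shares compare UMI yield between genes and not amounts of channel. The summed level was highest in oligodendrocyte precursors (3705 CPM in A, 3709 in B) and newborn excitatory neurons (3605 and 3320), followed by upper-layer neurons (3258 and 2900). It was lowest in microglia (988 and 1205 CPM). Oligodendrocyte precursors and newborn neurons were above all other classes in both libraries. KCND2 alone gave 1712 and 1525 CPM of the sum in oligodendrocyte precursors.

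**Figure D1:**
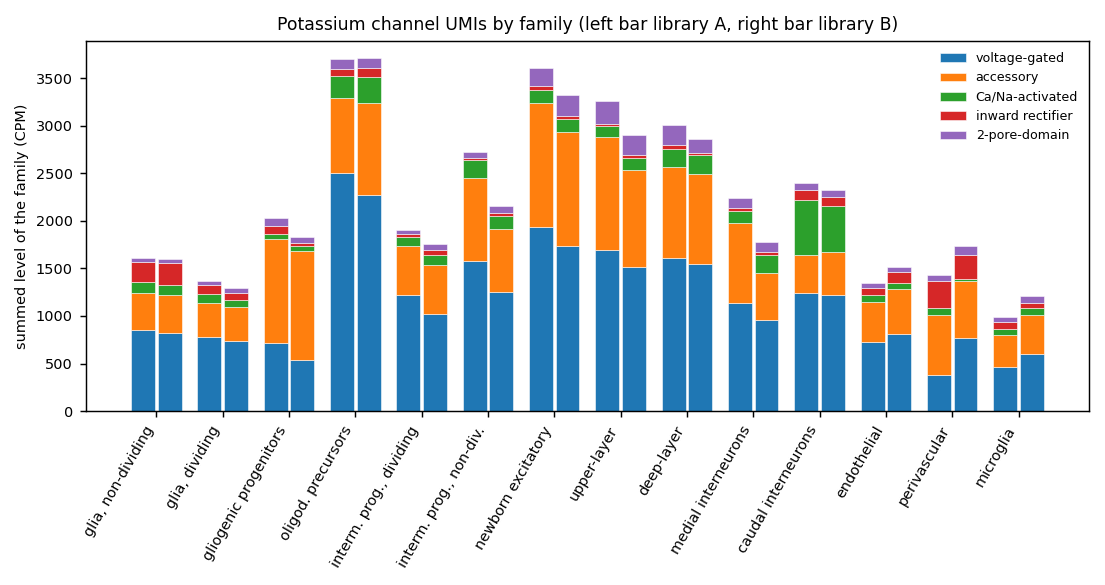
Summed level of potassium channel genes (CPM, vertical axis) in each of 14 cell classes (horizontal axis), stacked by family, with library A as the left bar and library B as the right bar of each class. Voltage-gated subunits led in most classes, with perivascular cells of library A as an exception, accessory subunits led in gliogenic progenitors (1091 and 1142 CPM against 717 and 541 for voltage-gated subunits), and inward rectifiers were largest in perivascular cells (292 and 256 CPM) and non-dividing glia (219 and 238). Of these inward rectifier sums, KCNJ8 alone gave 253 and 241 CPM in perivascular cells, and KCNJ15 gave 167 and 203 in non-dividing glia.

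The families were spread unevenly over the classes. Voltage-gated subunits summed to 2505 and 2277 CPM in oligodendrocyte precursors (A, then B), against 1940 and 1741 in newborn neurons and 856 and 816 in non-dividing glia. In the precursors KCND2 alone gave 1712 and 1525 CPM of this sum, against 275 and 204 CPM in newborn neurons. Calcium- and sodium-activated channels were highest in caudal-eminence interneurons, inhibitory neurons that migrate from the caudal ganglionic eminence, at 576 and 482 CPM. KCNT2 alone gave 508 and 435 CPM of that. The next class, oligodendrocyte precursors, had 232 and 271 CPM. 2-pore-domain channels were highest in the excitatory neurons, at 234 and 206 CPM in upper-layer neurons and 184 and 212 in newborn neurons, while non-dividing glia had 40.9 and 43.3. Between 35 genes (perivascular cells) and 70 genes (upper-layer neurons) of the 74 had a UMI in a class, and 16 to 23 reached 10 CPM in both libraries. The number with a UMI follows the number of UMIs sampled, which was smallest in perivascular cells.

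Some genes were high in nearly every class and others in 1 class only. KCNH7 was among the 3 highest of the potassium channel genes in 13 of the 14 classes, from 740.4 and 556 CPM in non-dividing intermediate progenitors to 164 and 248 in microglia, and gliogenic progenitors were the exception, with 204 and 120 CPM. KCNMB2 was among the 3 highest in 12 classes. For 33 of the 74 genes, the class with the highest mean was above every other class in both libraries, and for all 17113 genes with at least 20 UMIs the share was 28.7%.

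**Figure D2:**
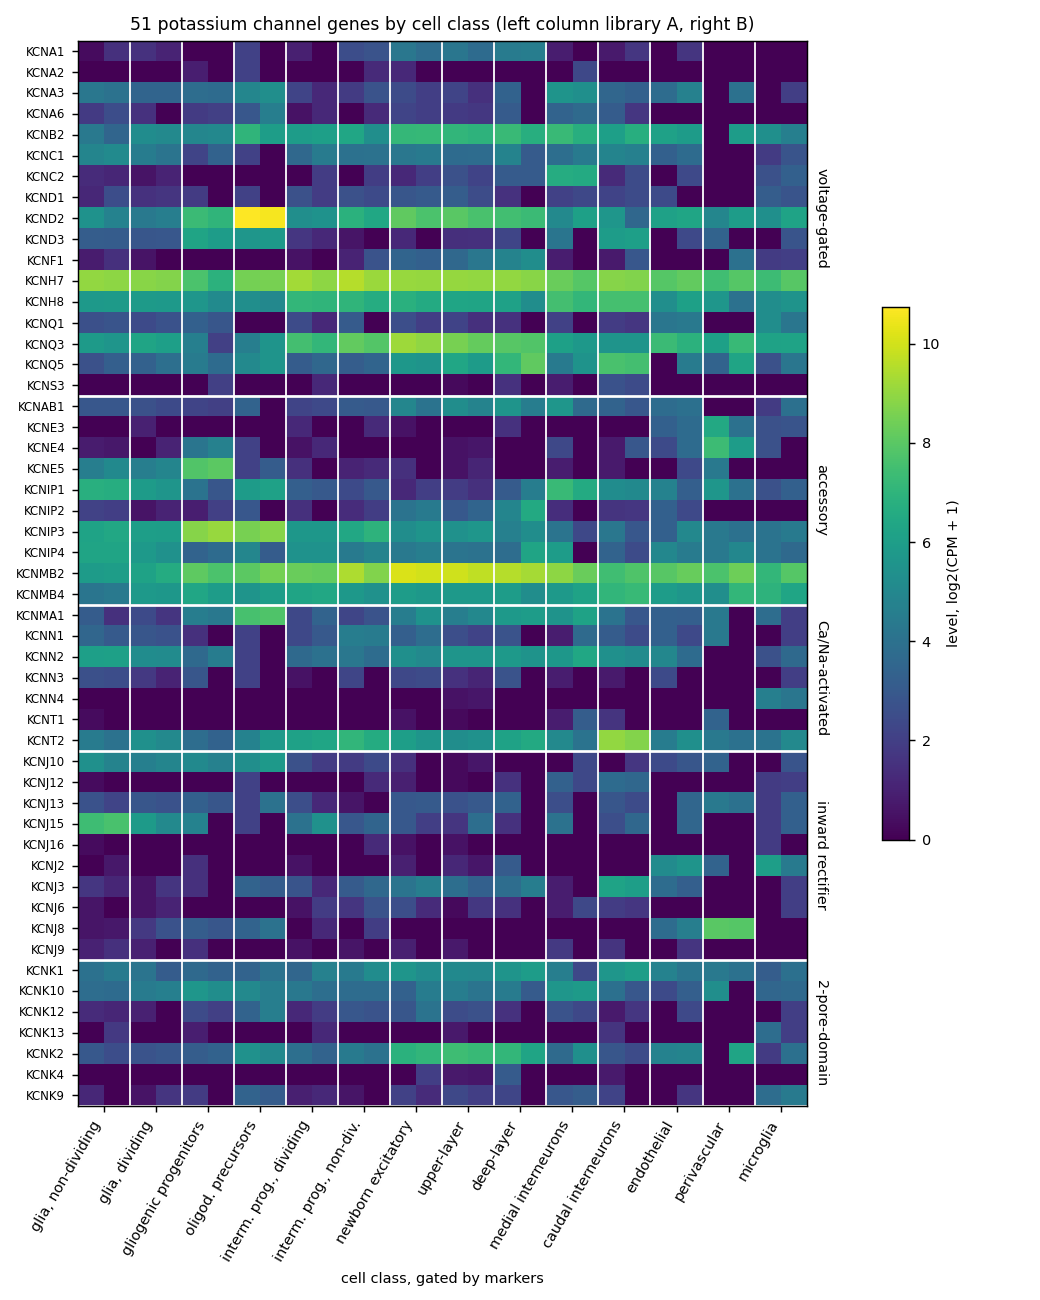
Level of 51 potassium channel genes, those named in the text (rows, grouped by family) in 14 cell classes (column pairs, library A left and library B right), coloured by log2(CPM + 1). KCNH7 and KCNMB2 form bright rows across the classes, and KCND2 is brightest in oligodendrocyte precursors (1712 and 1525 CPM), while many rows are dark outside 1 or 2 classes.

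Comparisons used edgeR's quasi-likelihood test on the UMIs summed per class and library, with all 14 classes in 1 fit. Of the 74 genes, 44 had enough UMIs to be tested, and the counts of calls below are about those 44. A call is an adjusted p under 0.05 after Benjamini-Hochberg adjustment over all 12398 genes tested, and log2 fold changes are given with their standard error (SE). Where a class of a group had no UMI of a gene, levels are given in place of the fitted fold change. The 8 comparisons share classes and are not independent of each other.

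KCNQ3 and KCNQ5, pore subunits of the M current, and KCNAB1 were higher in neurons than in glial cells, and KCNIP3, KCNJ10 and KCNJ8 were lower. Neurons were the mean of upper-layer, deep-layer, medial-eminence and caudal-eminence neurons, and glial cells the mean of non-dividing glia, gliogenic progenitors and oligodendrocyte precursors. Of the 44 tested genes, 18 were higher in neurons and 10 lower, where 22.5% and 24.9% of all genes tested were higher and lower and 47.4% changed in either direction. The median log2 fold change was 0.56 over the 44 genes and -0.02 over all genes. Of 17 voltage-gated subunits 10 were higher and 5 lower, of 12 accessory subunits 3 and 3, of 5 calcium- or sodium-activated channels 2 and 0, of 6 inward rectifiers 1 and 2, and of 4 2-pore-domain channels 2 and 0.

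KCNQ3 averaged 182 and 154 CPM over the neuronal classes and 34.4 and 32.4 CPM over the glial ones (log2 fold change 2.04, SE 0.15, edgeR adjusted p = 2.77e-22). Its neuronal level was not even: medial-eminence interneurons (68.8 and 52.3 CPM) overlapped with non-dividing glia (56.4 and 47.5), and caudal-eminence interneurons (46.3 and 46.4) were below them. KCNQ5, another M current subunit, averaged 110.5 and 142 CPM in neurons and 19.8 and 22.5 in glial cells (2.45, SE 0.20, edgeR adjusted p = 7.73e-20). KCNAB1, a cytoplasmic subunit of Shaker-type channels, averaged 35.3 and 17.1 CPM in neurons and 6.65 and 3.25 CPM in glial cells (2.33, SE 0.32, edgeR adjusted p = 8.84e-10).

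On the glial side, KCNIP3, a calcium-binding regulator of A-type channels, averaged 297 and 355 CPM in glial cells and 25.5 and 24.2 CPM in neurons (log2 fold change -3.35, SE 0.12, edgeR adjusted p = 9.47e-43). KCNJ10, the inward rectifier through which astrocytes take up potassium, averaged 37.5 and 35.5 CPM in glial cells and 0.0533 and 1.71 CPM in neurons, with no UMI in deep-layer neurons (edgeR adjusted p = 1.14e-20). KCNJ15, another inward rectifier of glia, was not called (edgeR adjusted p = 0.142). KCNJ8 had no UMI in any of the 4 neuronal classes against 19 in the glial ones, which makes it at least 8.81-fold lower when 3 counts over the neurons are taken as the limit (edgeR adjusted p = 8.83e-05). Few of the 19 were in non-dividing glia (2 in A and 1 in B), against 9 and 2 in gliogenic progenitors and 3 and 2 in oligodendrocyte precursors. Some averages hid opposite levels: KCND3, an A-type subunit, was lower in neurons as a group (-1.82, SE 0.30, edgeR adjusted p = 1.96e-07) although caudal-eminence interneurons held 60.3 and 66.3 CPM, close to the 75.8 and 59.8 of gliogenic progenitors. KCND2 was lower in neurons (-1.21, SE 0.11, edgeR adjusted p = 5.55e-17) in a contrast whose glial side includes oligodendrocyte precursors, at 1712 and 1525 CPM, while non-dividing glia had 43.7 and 25.8 CPM.

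Other potassium-handling genes were read from a list of 29 partners, of which 19 were tested: 9 were higher in neurons and 5 lower. ATP1B1, a sodium pump subunit, was higher in neurons (log2 fold change 2.72, SE 0.16), and ATP1B2, the glial pump subunit, was lower (-2.95, SE 0.22). ATP1B1 was not particular to neurons. It was at 162 and 189 CPM in microglia, against 65.7 and 79.0 in upper-layer neurons and 194 and 173 in medial-eminence interneurons. ATP1B2 averaged 132 and 135 CPM in glial cells and 11.8 and 16.7 CPM in neurons.

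Along the excitatory lineage, the first step from intermediate progenitor to newborn neuron was mostly one of gain. Newborn excitatory neurons (NEUROD1, NHLH1 and related markers, no EOMES) had 15 of the 44 genes higher and 3 lower than non-dividing intermediate progenitors, the EOMES-positive cells that give rise to neurons. Over all genes tested, 9.61% were higher and 9.79% lower, 19.4% in all. The median log2 fold change was 0.32 over the 44 genes and -0.01 over all genes.

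KCNK2, a mechanically and lipid gated leak channel, was at 20.4 and 15.6 CPM in non-dividing intermediate progenitors and at 117 and 132 CPM in newborn neurons (log2 fold change 2.72, SE 0.23, edgeR adjusted p = 4.96e-18). Dividing intermediate progenitors had 14.4 and 9.73 CPM of it, and upper-layer neurons 168 and 148, so both neuronal classes stood above both progenitor classes. KCNMA1, the pore of the large-conductance calcium-activated channel, went from 3.76 and 5.67 CPM to 22.1 and 44.1 (2.72, SE 0.43, edgeR adjusted p = 3.20e-07). KCNQ5 went from 8.05 and 9.92 CPM to 50.1 and 45.5 (2.54, SE 0.34, edgeR adjusted p = 1.25e-09). KCNIP2, an A-type channel regulator, went from 1.61 and 2.84 CPM to 16.3 and 20.6 (3.14, SE 0.61, edgeR adjusted p = 2.75e-05), on 5 UMIs in the progenitors. KCNQ3 and KCNMB2 were already high in progenitors and rose further, KCNQ3 from 282 and 235 CPM to 569 and 498 (1.09, SE 0.11, edgeR adjusted p = 2.14e-13), and KCNMB2 from 686 and 418 CPM to 1108 and 1015 (0.96, SE 0.12, edgeR adjusted p = 2.27e-10).

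KCNF1, a silent subunit that modifies delayed rectifier channels, was at 9.94 and 8.81 CPM in newborn neurons and 1.07 and 5.67 CPM in progenitors (2.04, SE 0.66, edgeR adjusted p = 0.0184), on 6 UMIs in the progenitors. KCNJ13, an inward rectifier, had 20 UMIs in newborn neurons and 1 in the progenitors (ratio of pooled levels 17.7, 95% exact counting interval 2.84 to 735, edgeR adjusted p = 0.0026).

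The genes that fell at this step were KCNIP3, KCNT2 and KCNN1. KCNIP3 was at 85.9 and 122 CPM in progenitors and 37.9 and 45.5 CPM in newborn neurons (log2 fold change -1.22, SE 0.19, edgeR adjusted p = 1.36e-07). KCNT2, a sodium-activated channel, was at 134 and 97.8 CPM and then 64.1 and 47.0 (-0.99, SE 0.17, edgeR adjusted p = 2.17e-06). KCNN1, a small-conductance calcium-activated channel, was at 22.5 and 21.3 CPM and then 8.58 and 13.2 (-1.11, SE 0.42, edgeR adjusted p = 0.0485), and its call was lost without the library term (adjusted p = 0.0511) and with DESeq2 (adjusted p = 0.264). KCNF1 also lost its call with DESeq2 (adjusted p = 0.137).

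**Figure D3:**
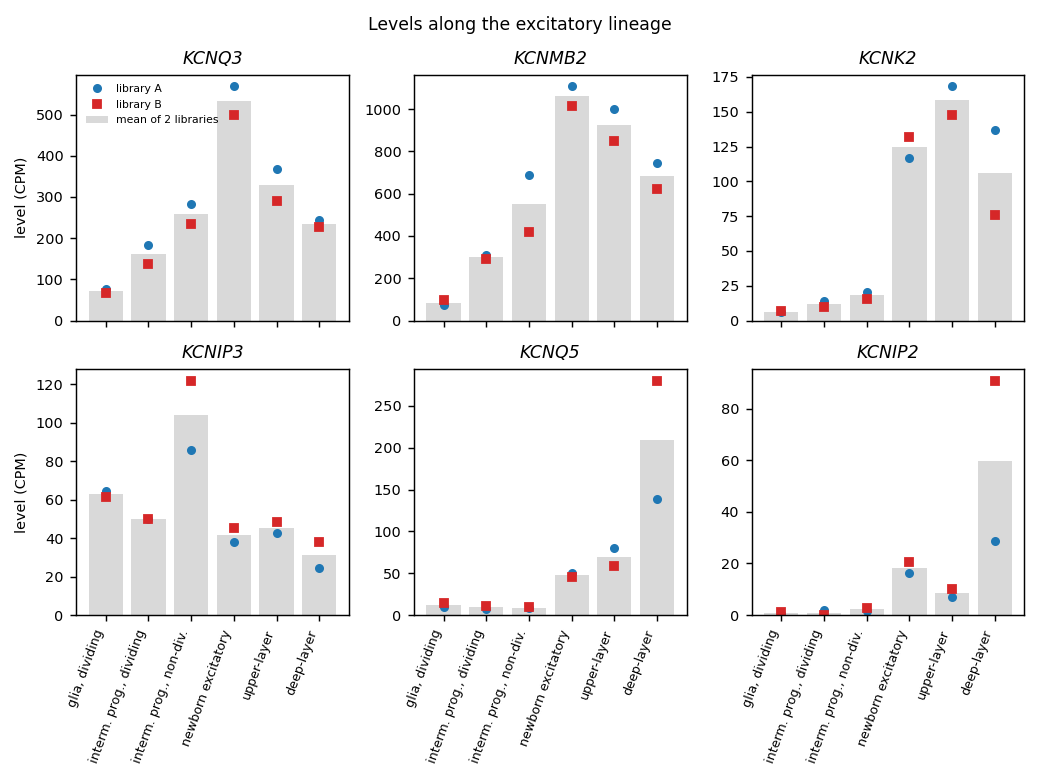
Level (CPM, vertical axes from 0) of 6 potassium channel genes in dividing glia, dividing and non-dividing intermediate progenitors, and newborn, upper-layer and deep-layer excitatory neurons, with points for libraries A and B and bars for their mean. KCNQ3 and KCNMB2 were highest in newborn neurons, KCNK2 was low until the neuronal classes, KCNIP3 was highest in non-dividing progenitors, and KCNQ5 and KCNIP2 were highest in deep-layer neurons, where the libraries also differed most (139 and 280 CPM for KCNQ5).

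Deep-layer neurons, which are born before upper-layer neurons, were compared with newborn and with upper-layer neurons. Against newborn neurons 1 gene was higher and 4 were lower of 44, where 1.56% and 2.04% of all genes were higher and lower, 3.61% in all. Against upper-layer neurons 2 were higher and 2 lower, where 1.31% and 0.758% of all genes were, 2.06% in all. The 29 deep-layer cells of library B held 132207 UMIs, so 1 UMI there is worth more than in any other neuronal sum.

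KCNQ5 and KCNQ3, both subunits of the M current, differed in opposite directions. KCNQ5 was at 139 and 280 CPM in deep-layer neurons, 80.2 and 59.0 in upper-layer and 50.1 and 45.5 in newborn neurons, with no overlap between the classes. It was higher in deep-layer than in newborn neurons (log2 fold change 1.71, SE 0.25, edgeR adjusted p = 2.06e-07) and than in upper-layer neurons (1.14, SE 0.22, edgeR adjusted p = 2.12e-04). KCNQ3 was at 243 and 227 CPM in deep-layer, 368 and 290.0 in upper-layer and 569 and 498 in newborn neurons, again without overlap. It was lower in deep-layer than in newborn neurons (-1.32, SE 0.15, edgeR adjusted p = 8.39e-11) and than in upper-layer neurons (-0.64, SE 0.15, edgeR adjusted p = 0.00507).

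KCNIP2 was at 28.5 and 90.8 CPM in deep-layer neurons (15 and 12 UMIs) and 6.83 and 10.0 CPM in upper-layer neurons (log2 fold change 2.36, SE 0.47, edgeR adjusted p = 4.63e-04). Both deep-layer sums were above both upper-layer sums, and the deep-layer libraries differed from each other more than the upper-layer ones. KCNMB2 was at 745 and 620.2 CPM in deep-layer neurons, and lower there than in newborn neurons (-0.72, SE 0.14, edgeR adjusted p = 1.53e-04) and upper-layer neurons (-0.53, SE 0.14, edgeR adjusted p = 0.014). KCNH8, a slowly gating voltage-dependent subunit, and KCND2 were lower than in newborn neurons (-0.85, SE 0.24, and -0.65, SE 0.19, edgeR adjusted p = 0.0254 and 0.0316). DESeq2 made 2 calls against newborn neurons and 1 against upper-layer neurons. With DESeq2 the calls of KCNH8, KCND2 and KCNMB2 against newborn neurons were lost (adjusted p = 0.105, 0.648 and 0.239), and against upper-layer neurons those of KCNQ3, KCNQ5 and KCNMB2 (adjusted p = 0.0792, 0.227 and 1). Without the library term, edgeR lost KCNQ3 and KCNMB2 against upper-layer neurons (adjusted p = 0.114 and 0.134) and KCNH8 and KCND2 against newborn neurons (adjusted p = 0.0738 and 0.186). After random thinning of the cells to 1500 UMIs each, edgeR made 3 and 0 calls. DESeq2 size factors in edgeR gave 1 higher and 2 lower against newborn neurons, and gave 3 higher and 1 lower against upper-layer neurons.

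Most of the genes called between inhibitory and excitatory neurons were lower in inhibitory neurons. Of the 44 tested genes, 6 were higher in inhibitory neurons (the mean of the medial and caudal classes) and 15 lower than in upper- and deep-layer neurons. Over all genes 10.7% were higher and 10.9% lower, 21.7% in all, and the medians were -0.26 over the 44 genes and 0.03 over all genes. Of 17 voltage-gated subunits 3 were higher and 9 lower.

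KCNK2 read 12.3 and 40.2 CPM in medial and 6.31 and 4.42 CPM in caudal interneurons, against 168 and 148 in upper-layer and 137 and 75.6 in deep-layer neurons (log2 fold change -3.83, SE 0.24, edgeR adjusted p = 2.27e-26). Every inhibitory value was below every excitatory one. KCNQ3 (-2.42, SE 0.13, edgeR adjusted p = 6.99e-30) and KCND2 (-2.43, SE 0.17, edgeR adjusted p = 3.50e-23) were also lower in inhibitory neurons. KCND2 read 32.7 and 68.4 CPM in medial and 48.4 and 11.1 in caudal interneurons, against 257 and 198 in upper-layer neurons. The silent subunit KCNF1 averaged 0.76 and 3.32 CPM against 19.1 and 28.0 (-3.89, SE 0.59, edgeR adjusted p = 5.97e-08).

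KCNA1, a Shaker-type subunit of axons, had 3 UMIs in all inhibitory neurons and 117 in the excitatory ones (ratio of pooled levels 18.5, 95% exact counting interval 6.19 to 91.2, edgeR adjusted p = 3.91e-08). KCNIP2 averaged 1.87 and 1.11 CPM against 17.7 and 50.4 (-3.35, SE 0.54, edgeR adjusted p = 2.08e-07). KCNJ2, an inward rectifier, had no UMI in inhibitory neurons and 11 in excitatory neurons, at least 1.74-fold lower with 3 counts over the inhibitory neurons as the limit (edgeR adjusted p = 0.0212), and this call was lost with DESeq2 (adjusted p = 0.135).

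The 6 genes higher in inhibitory neurons were KCNIP1, KCND3, KCNA3, KCNH8, KCNT2 and KCNMB4. KCNIP1, an A-type channel regulator, averaged 94.3 and 62.8 CPM in inhibitory and 5.19 and 12.2 CPM in excitatory neurons (log2 fold change 3.69, SE 0.27, edgeR adjusted p = 3.19e-22). KCND3, an A-type pore subunit, averaged 38.7 and 33.2 against 2.75 and 0.884 (3.58, SE 0.47, edgeR adjusted p = 3.85e-10). In medial interneurons alone KCND3 was at 17.2 CPM in library A and had no UMI in library B. Among the A-type genes called here, KCND2, KCNIP2 and KCNIP3 were higher in excitatory neurons and KCND3 and KCNIP1 in inhibitory neurons. KCNA3, a Shaker-type subunit, averaged 28.2 and 24.5 CPM against 6.56 and 0.884 (2.07, SE 0.41, edgeR adjusted p = 2.32e-05). It rested mainly on medial interneurons, at 45.8 and 40.2 CPM, while caudal interneurons had 10.5 and 8.84. KCNH8 averaged 185 and 162 CPM against 74.5 and 57.2 (1.31, SE 0.14, edgeR adjusted p = 6.84e-14). KCNT2 was higher only through the caudal class. It averaged 270.1 and 226 CPM in inhibitory and 55.1 and 66.3 CPM in excitatory neurons, but medial interneurons had 31.9 and 16.1. KCNMB4 averaged 93.6 and 111 CPM against 57.3 and 46.6, with 54.0 and 72.4 in medial interneurons. Among the partners, 7 were higher and 3 lower. DPP10, a membrane partner of A-type channels, averaged 540.1 and 424 CPM in inhibitory and 44.2 and 48.5 CPM in excitatory neurons (3.43, SE 0.13).

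Within the inhibitory neurons, the 2 origins carried different channels. Of 44 genes, 9 were higher in medial-eminence interneurons (LHX6, NXPH1, SST or MAF) and 7 in caudal-eminence interneurons (ADARB2, PROX1 or SP8). Over all genes 4.76% were higher in medial and 5.8% in caudal interneurons, 10.6% in all. The direction was the same in both libraries for 14 of the 16.

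KCNC2, a fast voltage-gated subunit known from rapidly firing interneurons, was at 98.2 and 92.5 CPM in medial and 1.40 and 4.42 CPM in caudal interneurons (log2 fold change 5.39, SE 0.53, edgeR adjusted p = 2.31e-14). The next class, deep-layer neurons, had 7.60 and 7.56 CPM. Its UMIs came from 55 of 363 medial cells in A and 13 of 78 in B. KCNC1, which forms channels of the same type, was not called (-0.85, SE 0.38), with 13.9 and 20.1 CPM in medial and 28.0 and 24.3 CPM in caudal interneurons. KCNIP1 was at 152 and 92.5 CPM in medial and 36.5 and 33.2 CPM in caudal cells (1.93, SE 0.22, edgeR adjusted p = 8.38e-12), and KCNA3 at 45.8 and 40.2 against 10.5 and 8.84 (2.11, SE 0.42, edgeR adjusted p = 6.47e-05). KCNK10, a leak channel, was at 49.1 and 56.3 against 14.7 and 6.63 CPM (1.96, SE 0.35, edgeR adjusted p = 5.90e-06). KCNMA1 was at 44.2 and 72.4 against 16.1 and 6.63 CPM (1.84, SE 0.36, edgeR adjusted p = 5.02e-05). KCNAB1 differed between the libraries, at 48.3 and 12.1 CPM in medial against 9.81 and 6.63 CPM in caudal cells (2.14, SE 0.39, edgeR adjusted p = 1.22e-05).

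KCNT2, which forms a sodium-activated channel, was at 508 and 435 CPM in caudal and 31.9 and 16.1 CPM in medial interneurons (log2 fold change -4.08, SE 0.20, edgeR adjusted p = 7.56e-33). It was the most abundant potassium channel gene of the caudal class, and the class next to it, non-dividing intermediate progenitors, had 134 and 97.8 CPM. KCNJ3, a subunit of the inward rectifier that G proteins open, had 1 UMI in medial cells and was at 73.6 and 64.1 CPM in caudal cells (ratio of pooled levels 105, 95% exact counting interval 18.5 to 4173, edgeR adjusted p = 1.85e-13). KCNQ5 was at 203 and 183 CPM in caudal and 19.6 and 44.2 CPM in medial cells (-3.02, SE 0.26, edgeR adjusted p = 2.30e-17). KCND3 was at 60.3 and 66.3 CPM in caudal cells, and in medial cells it was 17.2 CPM in library A and had no UMI in library B (-2.20, SE 0.39, edgeR adjusted p = 7.76e-06). KCNMB4, an accessory subunit of the large-conductance channel, was at 133 and 150.3 against 54.0 and 72.4 CPM (-1.28, SE 0.20, edgeR adjusted p = 4.74e-07). KCNK1, a leak channel, was at 49.1 and 61.9 against 22.9 and 4.02 CPM (-1.42, SE 0.33, edgeR adjusted p = 8.21e-04).

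The 2 calls whose direction differed between libraries were KCNIP4 and KCNB2. KCNIP4 was at 59.8 CPM in medial cells of library A and had no UMI in those of library B, against 9.81 and 4.42 CPM in caudal cells. Its 73 UMIs in library A came from 9 of 363 cells, and 33 of them from 1 cell. KCNB2, a delayed rectifier subunit, was at 156 and 105 CPM in medial and 65.9 and 106 CPM in caudal cells, so that only library A showed a difference. Of the 19 partners tested, 2 were higher in medial cells and 4 lower.

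**Figure D4:**
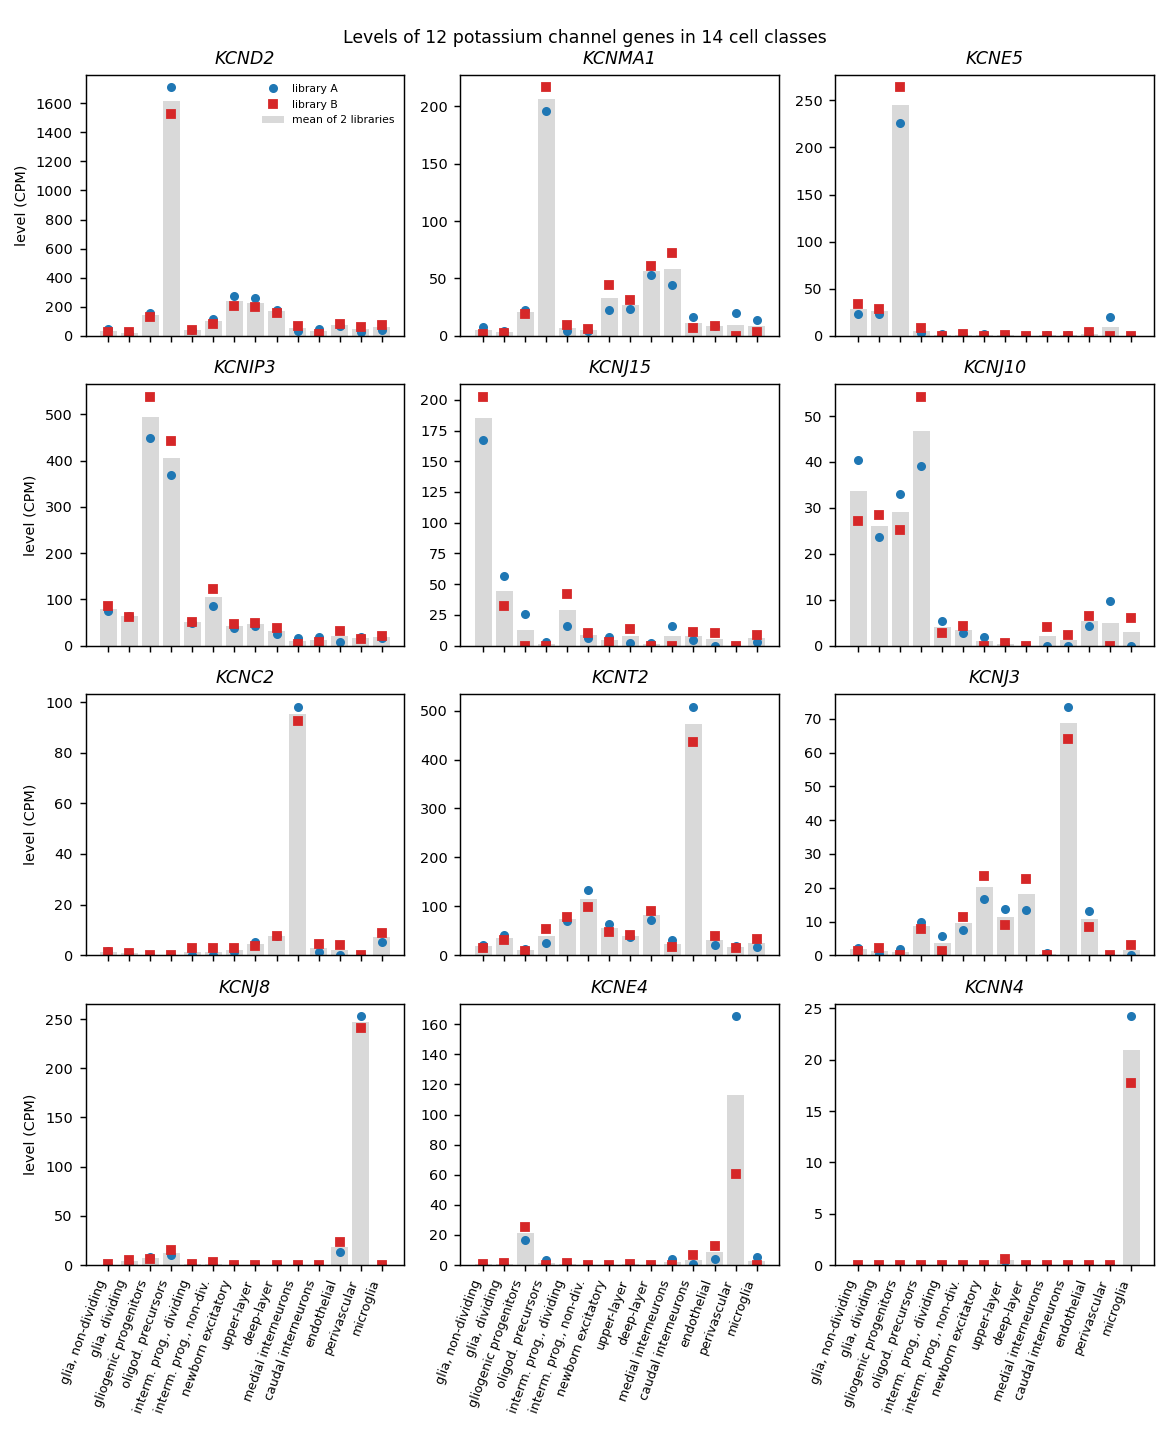
Level (CPM, vertical axes from 0) of 12 potassium channel genes in 14 cell classes (horizontal axes), with points for libraries A and B and bars for their mean. Each gene stands high in 1 or a few classes: KCND2 and KCNMA1 in oligodendrocyte precursors, KCNE5 and KCNIP3 in gliogenic progenitors, KCNJ15 in non-dividing glia, KCNC2 in medial and KCNT2 and KCNJ3 in caudal interneurons, KCNJ8 and KCNE4 in perivascular cells and KCNN4 in microglia.

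Oligodendrocyte precursors (PDGFRA, SOX10) had the highest level of any potassium channel gene in any class. KCND2 was at 1712 and 1525 CPM there and at 43.7 and 25.8 CPM in non-dividing HOPX and CLU glia (log2 fold change 5.34, SE 0.16, edgeR adjusted p = 8.99e-50). Newborn neurons came next, with 275 and 204 CPM. Of the 44 tested genes, 11 were higher in the precursors than in glia and 7 lower, where 10.6% and 12.2% of all genes were higher and lower, 22.7% in all, with medians of 0.10 over the 44 genes and -0.07 over all genes.

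The other A-type genes were mixed. KCND3 was at 48.9 and 54.2 CPM in precursors and 7.88 and 7.81 CPM in glia (2.55, SE 0.49, edgeR adjusted p = 1.77e-05), and KCNIP3 at 369 and 441 against 74 and 85.3 CPM (2.21, SE 0.17, edgeR adjusted p = 8.22e-20). KCNIP4 (29.4 and 7.74 against 76.0 and 76.3 CPM) and KCNIP1 (58.7 and 69.7 against 108 and 102 CPM) were lower (-1.86, SE 0.46, and -0.91, SE 0.29, edgeR adjusted p = 8.31e-04 and 0.0117), and both calls were lost with DESeq2 (adjusted p = 0.0783 and 0.131). DPP10 was at 577 and 565 CPM in precursors and 24.2 and 25.2 CPM in glia (4.42, SE 0.19), and DPP6, which binds the same channels, at 473 and 271 against 192 and 168 CPM (1.01, SE 0.16).

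KCNMA1 was at 196 and 217 CPM in precursors and 7.63 and 1.80 CPM in glia (log2 fold change 4.96, SE 0.33, edgeR adjusted p = 1.56e-24), and its accessory gene KCNMB2 was higher too (2.17, SE 0.22, edgeR adjusted p = 3.59e-14), at 261 and 364 against 58.7 and 61.9 CPM. KCNB2 was at 130.4 and 61.9 against 19.1 and 10.2 CPM (2.62, SE 0.34, edgeR adjusted p = 5.98e-10). KCNK2 was at 42.4 and 31.0 CPM against 6.86 and 4.81 (2.50, SE 0.53, edgeR adjusted p = 9.87e-05). KCNK12, a leak channel family member, rested on 6 UMIs in the precursors (3.05, SE 0.97, edgeR adjusted p = 0.0131), and KCNJ8 on 5 against 3 in glia (ratio of pooled levels 21.4, 95% exact counting interval 4.17 to 138, edgeR adjusted p = 0.00814).

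Some channel genes found in glia were nearly missing from the precursors. KCNJ15, an inward rectifier, was at 167 and 203 CPM in glia and had 1 UMI in precursors (ratio of pooled levels 77.5, 95% exact counting interval 13.9 to 3063, edgeR adjusted p = 4.98e-12). KCNN2, a small-conductance calcium-activated channel, was at 65.8 and 67.3 CPM in glia with 1 UMI in precursors (ratio 28.9, interval 5.15 to 1144, edgeR adjusted p = 1.80e-08). KCNC1 was at 28.2 and 34.3 CPM in glia, also with 1 UMI in precursors (ratio 13.1, interval 2.32 to 520, edgeR adjusted p = 3.88e-04). KCNN2 and KCNC1 were not particular to glia. Medial interneurons had a mean of 67.2 CPM of KCNN2, and caudal interneurons 26.2 CPM of KCNC1. KCNJ10 was not called (log2 fold change 0.20, SE 0.43), at 39.1 and 54.2 CPM in precursors and 40.4 and 27.0 CPM in glia. Partners were called in both directions, 6 higher and 6 lower. CNTNAP2, a membrane protein that gathers Shaker-type channels on axons, was at 78.3 and 69.7 CPM in precursors and 4.07 and 3.61 CPM in glia (4.11, SE 0.46).

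Gliogenic progenitors, gated by EGFR and OLIG1, entered no comparison of their own, and their levels are a description. KCNE5, an accessory subunit of voltage-gated channels, was at 226 and 264 CPM there, above non-dividing glia (22.9 and 33.7), dividing glia (23.2 and 28.5) and oligodendrocyte precursors (3.26 and 7.74, 1 UMI in each library). KCNIP3 was at 448 and 538 CPM, above the precursors in both libraries. KCND2 stood between glia and precursors at 159 and 129 CPM, while KCNMA1 was at 22.3 and 18.9 CPM. KCNJ15 was 25.8 CPM in library A, with 14 of its 29 UMIs from 1 cell, and had no UMI in library B.

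Levels in dividing and non-dividing glia are given as a description. KCNJ15 was at 56.5 and 31.8 CPM in dividing and 167 and 203 CPM in non-dividing glia, KCNIP1 at 58.0 and 47.2 against 108 and 102, and KCNN2 at 36.7 and 35.1 against 65.8 and 67.3. The KCNJ15 UMIs came from 103 of 748 and 54 of 355 non-dividing glia, and from 22 of 278 and 9 of 135 dividing glia. In dividing glia of library A, 49 of the 117 came from 1 cell. KCNMB4 was higher in dividing glia, at 53.6 and 50.5 CPM in dividing and 17.0 and 19.2 in non-dividing glia, and so was KCNT2, at 40.6 and 31.8 against 20.8 and 15.6. The values of the 2 classes did not overlap for these genes, which are examples. The share of potassium channel genes, or of all genes, without such overlap was not counted, and no test was fitted.

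In the vessel wall, 2 of the 44 genes were called, both higher in perivascular (mural and fibroblast) than in endothelial cells, where 3.23% of all genes were higher in endothelial cells, 1.82% lower and 5.05% called in all. KCNJ8, the pore of the ATP-sensitive channel of pericytes and smooth muscle, was at 253 and 241 CPM in perivascular and 13.1 and 23.3 CPM in endothelial cells (endothelial minus perivascular, log2 fold change -3.56, SE 0.53, edgeR adjusted p = 4.46e-07). It was the second most abundant potassium channel gene of perivascular cells, on 26 UMIs from 11 of 34 cells in A and 16 UMIs from 5 of 26 cells in B. ABCC9, the regulatory subunit that pairs with KCNJ8, was at 554 and 542 CPM in perivascular and 39.2 and 76.2 CPM in endothelial cells (-2.90, SE 0.36). Every other class held KCNJ8 at or under 15.5 CPM in each library. ABCC9 was at 45.8 and 5.91 CPM in microglia, and at most 16.3 CPM in any remaining class and library.

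KCNE4, an accessory subunit, was at 165 and 60.2 CPM (17 and 4 UMIs) in perivascular and 4.35 and 12.7 CPM in endothelial cells (-3.44, SE 0.74, edgeR adjusted p = 5.94e-04). KCNE3, a related subunit that was not called, read 87.5 and 15.1 CPM (9 and 1 UMIs) against 8.70 and 12.7 CPM. A further 177 cells passed both vascular gates and were in neither class, against 283 endothelial and 60 perivascular cells. In these, KCNJ8 was at 126 CPM in library A (30 cells) and 91.0 CPM in library B (147 cells), between the 2 classes. Endothelial and perivascular cells also held KCNMB2 (248 and 298, then 204 and 331 CPM) and KCNQ3 (161 and 118, then 68.1 and 151 CPM), genes that are high in neurons, beside STMN2 at 431 to 444 and 292 to 331 CPM. The part of neuronal RNA in those levels was not tested.

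Microglia had the lowest summed level. KCNN4, an intermediate-conductance calcium-activated channel known from immune cells, was at 24.2 and 17.7 CPM (9 and 6 UMIs, from 8 of 100 and 6 of 109 cells). In the other 13 classes, 3 UMIs of it were seen, all in upper-layer neurons. KCNK13, a leak channel known from microglia, was at 13.5 and 2.95 CPM (5 and 1 UMIs), with UMIs in 5 other classes too. KCNK9, a related leak channel, was at 13.5 and 20.7 CPM, and at most 9.78 CPM in any other class. KCNJ2 was at 64.6 and 20.7 CPM in microglia and 34.8 and 46.5 CPM in endothelial cells, and at most 9.72 CPM in any other class. KCNQ1, a slowly activating subunit, was at 37.7 and 17.7 CPM in microglia and 17.4 and 19.0 in endothelial cells. No comparison of microglia was fitted, and levels this low rest on few UMIs.

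The 30 genes that were not tested had 21 to 279 UMIs in all cells. They included 14 voltage-gated subunits (among them KCND1 with 279 UMIs and KCNA6 with 170), 3 accessory subunits, 2 calcium- or sodium-activated channels (KCNN3 with 171 and KCNT1 with 21), 6 inward rectifiers and 5 2-pore-domain channels. They were removed by the filter on low counts, so the fit holds no test of them. With no filter all 74 entered, and edgeR made 23 calls in place of 21 between inhibitory and excitatory neurons, 19 in place of 18 in oligodendrocyte precursors, 5 in place of 4 between deep- and upper-layer neurons and 27 in place of 28 between neurons and glial cells. KCNJ6 (109 UMIs) and KCNJ9 (45), which join KCNJ3 in G protein-opened channels, were among the 30, and so was KCNJ12, at 12.6 and 11.1 CPM in caudal interneurons.

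**Figure D5:**
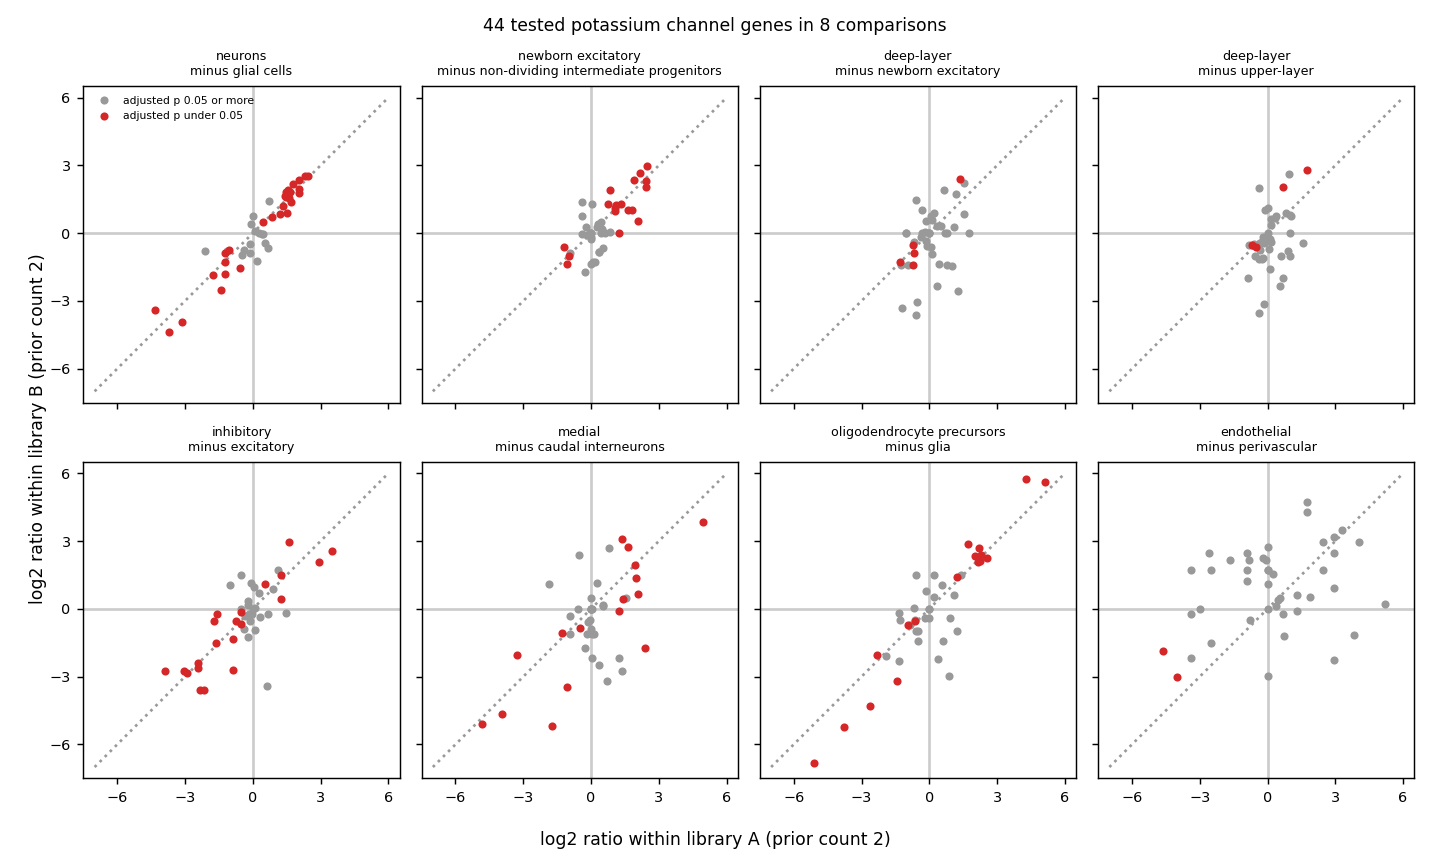
Log2 ratio between the classes of each comparison in library B (vertical axis) against library A (horizontal axis) for the 44 tested potassium channel genes, with genes at an adjusted p under 0.05 in red and the dotted line where the libraries are equal. Red points have the same sign in both libraries in every panel, except KCNIP4 and KCNB2 in the comparison of medial with caudal interneurons.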

How the data were processed

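The deposited matrix gives raw UMI counts, as whole numbers, with cells of both replicates in 1 table, per the file headers. Per the submitters' processing notes, they were made with Cell Ranger. No version of it or genome build is given in the sources used here, and no coordinates are printed. Barcode endings were read as the 2 libraries. All 74 symbols matched the RefSeq table of assembly ASM1176430v1.1. No sequences were used here.

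A cell had to show 500 or more genes and no more than 10% mitochondrial UMIs, which removed 14. Scrublet in scanpy 1.11.5 called 0 doublets in either library, so it did not work, and a fit that drops the 504 cells scoring over 0.2 was tried. Classes were gated by marker UMIs, at thresholds set from marker counts alone, and cells passing several major gates (429 and 446) were left out. UMIs were summed per class and library. The fit took all 28 sums and used edgeR 4.0.16 under R 4.3.3 (quasi-likelihood, TMM, filterByExpr, library as a block, 13 residual degrees of freedom), checked on simulated data. For deep-layer minus upper-layer, 44% of 2-fold and 94% of 4-fold simulated rises were recovered. Simulated falls to 0.5 and 0.25 were recovered in 22% and 50%, so changes there can be missed. The simulation gave all genes the same spread, unlike real genes. CPM is UMIs per 1000000 UMIs of a sum. Ratios within a library used a prior count of 2. Counting intervals are exact 95% and, like the limit of 3 counts, cover counting error only.

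Named by rule were up to 6 genes per direction and comparison with the largest fold change among those called with the same sign in both libraries, the 3 highest per class, and those next to the 20 UMI limit; others are named as family members. DESeq2 1.42.0 and the other alternatives are given at the end. The genes, lists and partners were chosen with earlier results of these data known. Results for some genes are not reported here.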

Additional observations from a re-analysis of the deposited data

How the results depend on the processing

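Across the 68 named gene and comparison pairs no alternative fit reversed a direction. The call held for 56 pairs with DESeq2 (12 lost), 64 with DESeq2 size factors in edgeR (4 lost), 63 without the replicate block, the fit without the library term (5 lost), 41 of 55 with thinned cells, 68 with no filter on low counts, and 68 without cells of a doublet score above 0.2. The number of calls moved by over 1.5 times as follows. Thinning every cell to 1500 UMIs left 10 of 18 in newborn neurons against progenitors, 10 of 18 in oligodendrocyte precursors, 1 of 2 in the vessel wall, 3 of 5 in deep-layer against newborn neurons and 0 of 4 against upper-layer neurons, where edgeR gave 6 members an unadjusted p under 0.05; it also left 30 members tested. In deep-layer against newborn neurons, DESeq2 size factors gave 3, DESeq2 gave 2 and the fit without the replicate block 3; against upper-layer neurons the fit without the block gave 2 and DESeq2 gave 1. The cause was not tested. Of 74 genes, 47 kept their highest class with thinning, 49 with stricter gates, and 53 to 54 with either library left out. With stricter gates 30 of 32 pairs held (KCNF1 and KCNIP1 were lost). Stricter gates could not be run for comparisons with deep-layer or perivascular cells, which then had under 20 cells in a library. With 1 library left out no spread remains, so those are values without a test, taken as ratios with a prior count of 2 unlike the fit. None could change sign, because a pair was named only if both libraries had the sign of the fit, so this is no check of direction. Of the 68, 45 moved by over 1 SD of the 2 library values without library A and 23 without library B. Another scaling moved the median of all genes by 0.11 (deep-layer minus upper-layer) and -0.11 (endothelial minus perivascular) on the log2 scale. Every class was drawn from both libraries, so the block is the library. For lack of UMIs, 30 of the 74 genes were not tested.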

Other observations

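Single cells could carry a class value. KCNIP4 in medial-eminence interneurons of library A rested on 73 UMIs from 9 of 363 cells, 33 of them in 1 cell, and the 78 cells of library B held none. KCNJ15 and KCND3 showed the same split between the libraries, with 19 and 21 medial UMIs in library A and 0 in library B, but spread over 11 and 19 cells.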
